A study of Macaca fascicularis and Macaca mulatta and Papio anubis with 20 samples.

Results

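The genes described here encode the motors of axonal transport: kinesins, their light chains, dyneins and dynactin. They were measured by Visium spatial transcriptomics in dorsal root ganglia, which hold the cell bodies of the sensory neurons next to the spinal cord. Members were the features of the *Macaca fascicularis* files whose symbol began with KIF or KLC and a digit, or with DYNC, DYNL or DCTN. This gave 55 genes among 22000 features, of which 15068 carried a symbol. By role they were 12 axonal and vesicle kinesins, 4 kinesin light chains, 12 mitotic kinesins, 8 other kinesins, 3 subunits of cytoplasmic dynein 1, 8 dynein light chains, 2 subunits of dynein 2 and 6 dynactin subunits. At least 1 UMI (unique molecular identifier, 1 captured transcript) was counted for 52 of them in tissue, and KIF12, KIF4A and KIF4B were at 0. The symbol DYNC1H1, of the heavy chain of cytoplasmic dynein, was not among the symbols of these files, so the motor subunit of dynein 1 was not analysed here in *M. fascicularis*.

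Of 20 fresh frozen sections, 16 were labelled *M. fascicularis* (crab-eating macaque), 2 *Macaca mulatta* (rhesus macaque) and 2 *Papio anubis* (olive baboon). Those of *M. fascicularis* carry 4 title codes with 4 sections each, 1 female and 1 male in batch 1 and 1 female and 1 male in batch 2. Sections of a title code are called a specimen here, although the labels do not say that a code is 1 animal, and p-values therefore rest on 4 codes. Between batches and sexes they are set against the spread between codes. For comparisons within sections, with specimen as a block, they are set against the spread of the difference over codes. Sections of the other 2 species were all of batch 2. No treatment, genotype or age was labelled for any group, and no sex for the other 2 species.

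Kinesins walk along microtubules mostly toward the axon tip and carry vesicles, mitochondria and cytoskeletal proteins outward, while cytoplasmic dynein carries cargo such as signalling endosomes back to the cell body. Kinesin light chains link kinesin-1 to its cargo, and dynactin is the complex that dynein needs to move over long distances. Sensory neurons of the ganglion have among the longest axons of the body, and mutations in several of these genes, KIF5A, KIF1A and DCTN1 among them, cause hereditary diseases of long axons. NEFH, the heavy neurofilament subunit, marks large neurons with myelinated axons, PVALB, a calcium-binding protein, marks proprioceptors and other large neurons, and SCN11A, the sodium channel Nav1.9, marks nociceptors.

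The *M. fascicularis* sections held 1136433 to 7073134 UMIs under tissue. The totals were 190376 and 264661 UMIs in the 2 sections labelled *M. mulatta* and 595020 and 12595205 UMIs in the 2 labelled *P. anubis*. Neuronal markers were present in each *M. fascicularis* section, with 11 of 13 list genes matched and a summed level of 17258 to 28453 CPM (UMIs of a gene scaled to a total of 1000000 UMIs). Spots, small regions that can hold several cells, were available in 15 *M. fascicularis* sections, and the 18594 spots with at least 200 UMIs were used. Section 3 of the male specimen of batch 2 entered through its deposited table of gene totals, and its spots were not analysed here.

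All 55 members together made up 7656 ± 270.3 CPM (mean ± SD of the 4 specimen means), with 6926 to 8240.2 CPM over the 16 sections. Differences in level between genes are not read as results here. Among the members, 18 averaged under 1 CPM, 10 of them mitotic kinesins, which move chromosomes and build the spindle in dividing cells. The 12 members with the highest mean CPM were chosen for a description of the sections.

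KLC1, a light chain of kinesin-1 enriched in neurons, measured 1424 ± 213 CPM in the female specimen of batch 1, 1548 ± 94.2 in the male one, 1555 ± 92.4 in the female specimen of batch 2 and 1431 ± 105 CPM in the male one (SD of 4 sections each). The sections of the 4 specimens overlapped, and no group stood apart. KLC2, the more widely expressed light chain, measured 306 ± 13.01 CPM in the female specimen of batch 1, 264 ± 21.4 in the male one, 387 ± 34.01 in the female specimen of batch 2 and 274 ± 44.7 CPM in the male one. Sections of the female specimen of batch 2 were the highest for KLC2, 341, 400.3, 386 and 422 CPM, and lay above the other 12 sections. The nearest was section 4 of the male specimen of batch 2, whose 340.5 CPM came just under the 341.4 CPM of the lowest of the 4. The share of all features that set a specimen apart in this way was not computed, so this is only a description.

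KIF5B, the widely expressed heavy chain of kinesin-1, was at 278 ± 13.8 CPM in the female specimen of batch 1, 259.6 ± 22.6 in the male one, 156 ± 18.8 in the female specimen of batch 2 and 183 ± 43.5 CPM in the male one. The lowest section of batch 1 was at 228 CPM and the highest of batch 2 at 243 CPM, so the batches overlapped. Its neuronal counterparts, named after their values were seen, were KIF5A with 31.1 to 92.04 CPM and KIF5C with 5.70 to 29.2 CPM over sections.

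Of cytoplasmic dynein 1, the files held both intermediate chains and 1 light intermediate chain. The intermediate chains bind dynactin and cargo, and DYNC1I1 is the mainly neuronal form while DYNC1I2 is expressed in most cells. DYNC1I1 measured 273 ± 16.5 CPM in the female specimen of batch 1, 241 ± 12.5 in the male one, 206 ± 34.6 in the female specimen of batch 2 and 152 ± 18.8 CPM in the male one. DYNC1I2 measured 241 ± 51.1 CPM in the female specimen of batch 1, 297 ± 66.96 in the male one, 180.5 ± 25.3 in the female specimen of batch 2 and 262 ± 57.1 CPM in the male one. The male specimen of batch 2 was the lowest for DYNC1I1, and the female specimen of batch 2 for DYNC1I2, but the sections of the 2 batches overlapped for both.

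Dynein light chains, small subunits that hold together the tail of the complex, had 4 members among the 12. DYNLL1, which also binds many partners outside dynein, was at 1016 ± 193 CPM in the female specimen of batch 1, 1139 ± 138 in the male one, 817 ± 81.4 in the female specimen of batch 2 and 886 ± 151 CPM in the male one. DYNLL2, its paralog in the LC8 family, was at 1208 ± 180.1 CPM in the female specimen of batch 1, 892 ± 138 in the male one, 787 ± 69.5 in the female specimen of batch 2 and 863 ± 165 CPM in the male one. DYNLRB1, of the roadblock family, ranged over sections from 349.7 to 665 CPM, and DYNLT3, of the Tctex family, from 127 to 295 CPM. For each of these 4 genes the ranges of the 2 batches overlapped.

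Dynactin was represented by DCTN1 (p150Glued, which binds microtubules and dynein), DCTN2 (dynamitin) and DCTN3 (p24, of the shoulder). DCTN1 lay between 370.3 and 814 CPM over sections, DCTN2 between 597 and 865 CPM and DCTN3 between 175 and 391 CPM. The highest DCTN1 value came from section 4 of the male specimen of batch 2, where the other 3 sections of that specimen were at 483, 510.0 and 580.1 CPM. By role, kinesin light chains summed to 1833 ± 108 CPM, dynactin to 1867 ± 82.9, dynein light chains to 2736 ± 161 and cytoplasmic dynein 1 to 629 ± 103 CPM (mean ± SD of 4 specimen means). Axonal and vesicle kinesins summed to 408 ± 97.1 CPM and mitotic kinesins to 56.9 ± 12.4 CPM.

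**Figure D1:**
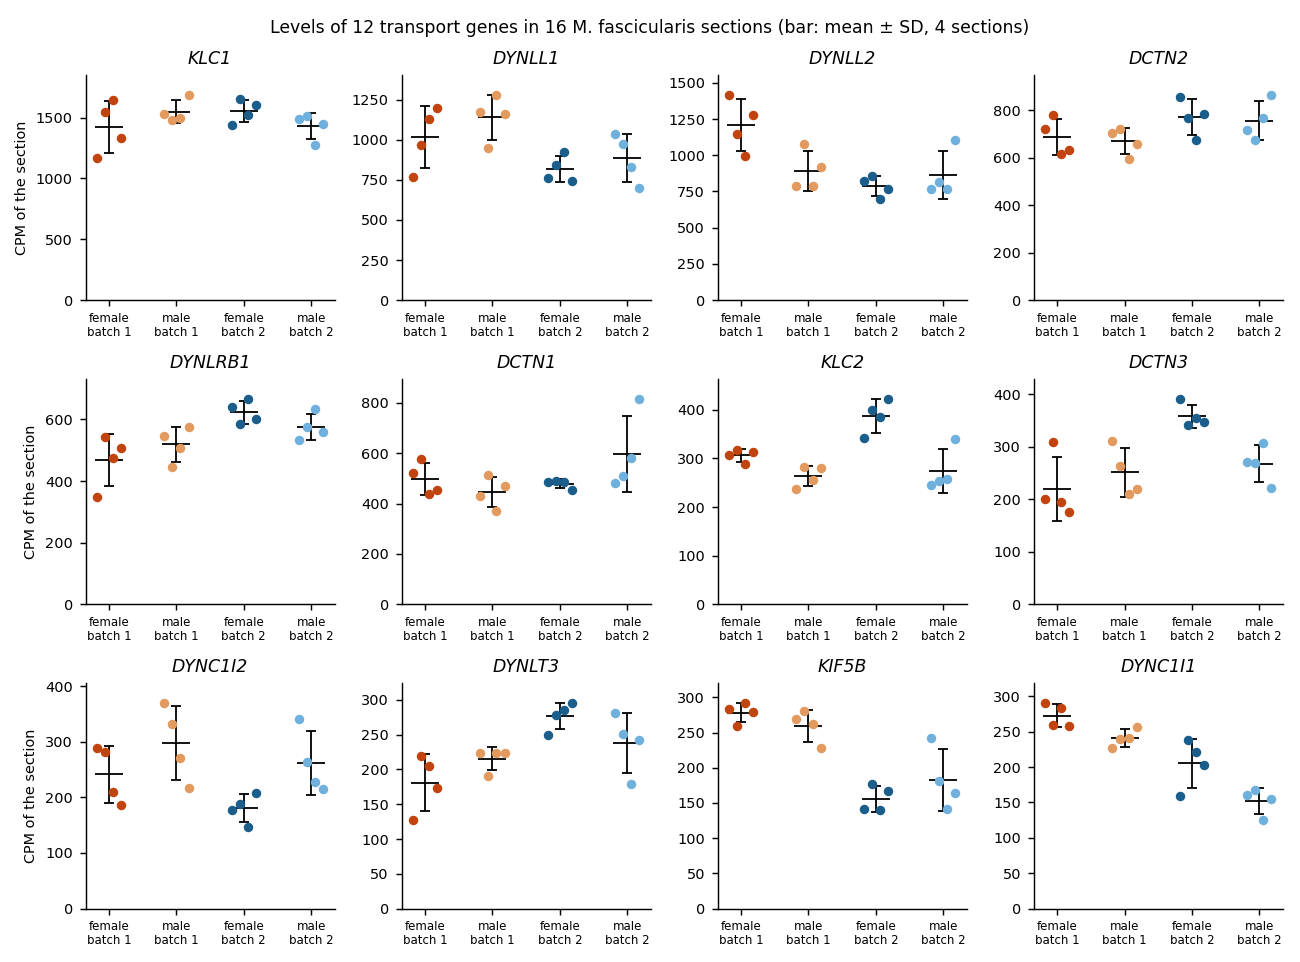
Level of the 12 members with the highest mean in each of the 16 *M. fascicularis* sections, in CPM on axes from 0, by sex and batch; points are sections and bars the mean ± SD of 4 sections. KIF5B and DYNC1I1 lie lower in batch 2 on average, KLC2 is highest in the female specimen of batch 2, and KLC1 shows no group apart.

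Between batches, no member passed the threshold. Of 42 members tested over summed specimens, 0 were called by edgeR's quasi-likelihood test at an adjusted p under 0.05, against 2.89% of the 12650 features tested (1.32% higher and 1.57% lower in batch 2), and 6 members had an unadjusted p under 0.05. DESeq2 also called 0 members, with its share over all features not given here. With so few specimens, 0 calls do not show that levels were equal. The median log2 fold change (batch 2 minus batch 1) was -0.16 over members and -0.01 over all features, or -0.28 and -0.13 when scaled by library size alone.

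Although none was called, the sections of the 2 batches did not overlap for 4 of the 52 detected members, 3 of them lower and 1 higher in batch 2, against 5.95% of the 17322 features compared this way (4.02% lower and 1.93% higher). These 4 were named after their values were seen. DCTN5, the p25 subunit at the pointed end of dynactin, had 51.4 and 48.8 CPM in the specimens of batch 1 and 24.04 and 26.4 CPM in those of batch 2 (log2 fold change -0.98, SE 0.22, adjusted p = 0.0563). KIF5C had 21.2 and 19.9 CPM in batch 1 and 6.74 and 9.73 CPM in batch 2 (log2 fold change -1.13, SE 0.31, adjusted p = 0.104). KIF1A, which carries precursors of synaptic vesicles, was at 19.99 and 24.5 CPM against 10.5 and 13.1 CPM (log2 fold change -0.86, SE 0.28, adjusted p = 0.159). DYNLRB2, the second roadblock chain, was the 1 of the 4 with higher values in batch 2, 37.04 and 43.1 CPM against 21.00 and 26.5 CPM (log2 fold change 0.88, SE 0.23, adjusted p = 0.0908).

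Summed over the 12 axonal and vesicle kinesins, the 8 sections of batch 1 held 462 to 517 CPM and the 8 of batch 2 269 to 408 CPM. How often sums of other genes lie apart in this way was not examined, so these ranges are only described. KIF5B, whose sections overlapped between the batches, made up the largest part of this sum. Of the 11 genes of this class that were tested, 0 were called. Markers of other cells differed between the batches as well. Of the fibroblast list 5 of 7 tested genes were called lower in batch 2, and of the myelinating Schwann cell list 2 of 8. The summed fibroblast level over sections was 3086 to 7107 CPM in batch 1 and 1231 to 3357 CPM in batch 2, that of Schwann cells 3212 to 8875 and 1849.6 to 3927 CPM, and no list gene of either was at 0 in total. Their part in the values of the members was not tested, and fewer cells of a type cannot be told apart from less RNA per cell. The batches of *M. fascicularis* also differed in Space Ranger version, 2.0.0 against 2.1.0 in the files with a header, which cannot be told apart from the batch.

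The batch fit rested on 4 summed specimens. DCTN5 passed when any 1 of 8 sections was left out, with adjusted p between 0.0164 and 0.048: sections 1, 2 or 4 of the female and 1 or 2 of the male specimen of batch 1, and sections 1 or 3 of the female and 4 of the male specimen of batch 2. With section 4 of the batch 1 female left out, DYNLRB2 (adjusted p = 0.0411) and KIF5C (adjusted p = 0.0397) passed too, in the same edgeR test.

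Between female and male specimens, 0 of 42 members were called, as were 0 of all 12650 features (0% by edgeR's quasi-likelihood test), and 0 members had an unadjusted p under 0.05. DESeq2 called 0 members, with its share over all features not given here. As between batches, so few specimens cannot show that levels were equal. The member with the smallest unadjusted p was KLC2, with a log2 fold change (female minus male) of 0.45 (SE 0.25, adjusted p = 0.997). For no detected member did the 8 female sections lie apart from the 8 male ones, against 0.0404% of features.

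Within sections, several members made up a larger share of the UMIs in spots rich in NEFH, and some a smaller one. The 25% of spots in each section with the most NEFH per 10000 UMIs (4643 spots) were compared with the remaining 13951 spots, summed per specimen, with specimen as a block. Of 37 members tested, 13 were higher and 3 lower in NEFH-high spots at an adjusted p under 0.05 (edgeR's quasi-likelihood test), in a comparison that called 40.7% of all 11873 features, 20.2% higher and 20.5% lower. The count of members called in either direction lay near the share over all features. Among the higher ones were an intermediate chain of dynein, light chains of dynein and kinesin, heavy chains of kinesin and DCTN1. The median log2 fold change was 0.07 over the members tested and -0.03 over all features tested, or -0.02 and -0.12 when scaled by library size alone. That run called 12 members higher and 3 lower. Its share over all features is not given, so these counts only describe the run.

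DYNC1I1, the neuronal intermediate chain of dynein, measured 337, 309.6, 279 and 222 CPM in the NEFH-high spots of the female and male specimens of batch 1 and then of batch 2, and 235, 204, 162 and 142 CPM in the other spots, in the same order. It was higher in 4 of 4 specimens and in 15 of 15 sections (log2 fold change 0.72, SE 0.06, adjusted p = 6.1e-09), although the ranges of specimens overlapped between the classes. Its paralog DYNC1I2 went the other way. It measured 190.1, 226, 157 and 248 CPM in NEFH-high spots and 254, 321, 201 and 313 CPM in the others, and was lower in 4 of 4 specimens and 15 of 15 sections (log2 fold change -0.33, SE 0.06, adjusted p = 1.3e-04). DYNC1LI2, the light intermediate chain, which carries adaptors, was not called (log2 fold change 0.08, SE 0.06, adjusted p = 0.319).

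With the spots of each section ranked by NEFH and cut into 4 classes of equal size, DYNC1I1 averaged 141, 179.7, 222 and 287 CPM from the least to the most NEFH, while NEFH itself, which ranked the spots, went from 826 to 9858 CPM. DYNC1I2 averaged 273, 282, 259 and 206 CPM. DYNC1I1 thus differed across the whole range of NEFH, whereas the lower level of DYNC1I2 was mainly in the top class.

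**Figure D2:**
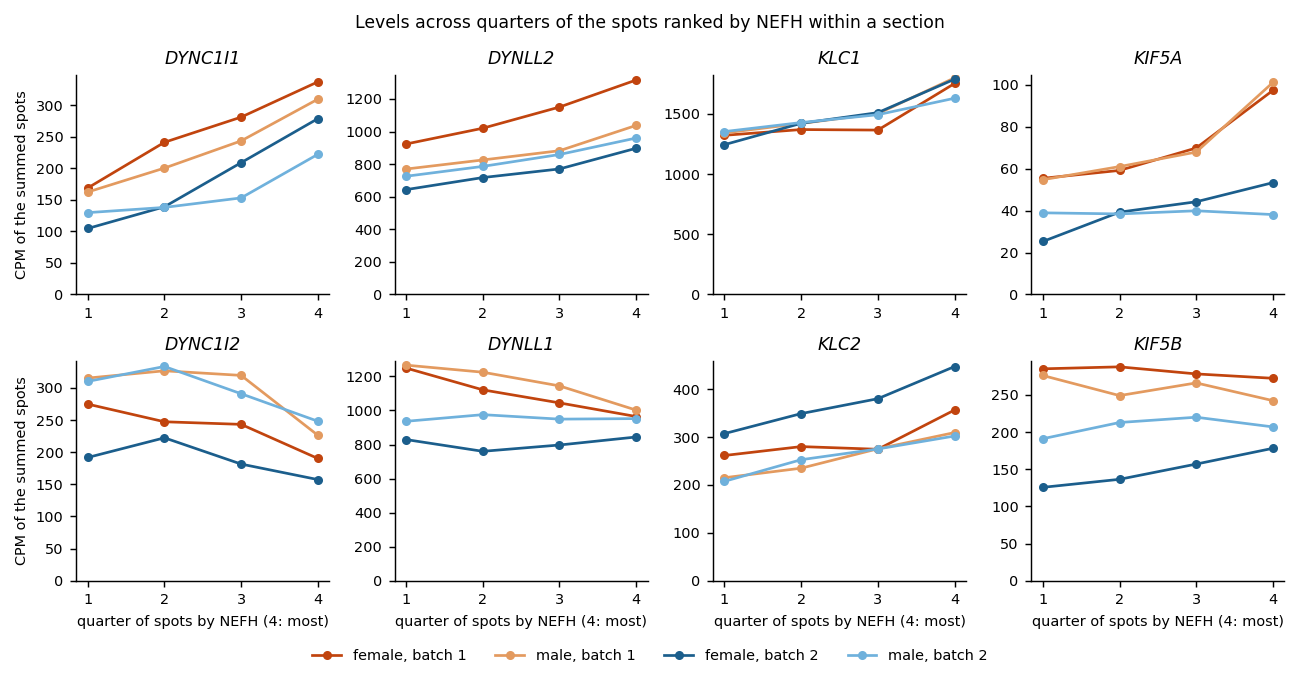
Level of 8 members in 4 equal classes of the spots ranked by NEFH within each section (x axis; class 4 holds the most NEFH), in CPM of the summed spots, with 1 line for each of the 4 specimens and axes from 0. DYNC1I1, DYNLL2 and KLC1 are higher in class 4 than in class 1 in each specimen, DYNC1I2 is lower, and KIF5A stays near 38.1 CPM in the male specimen of batch 2.

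Of the 4 kinesin light chains, 3 were tested and called higher, and KLC3 was left out by the filter on low counts. KLC1 was at 1755, 1800.3, 1789 and 1631 CPM in NEFH-high spots, each above the highest of the 1355, 1426, 1432 and 1439 CPM in other spots (log2 fold change 0.38, SE 0.06, adjusted p = 5.8e-05). KLC2 averaged 354 ± 66.9 against 281 ± 51.2 CPM (SD, n = 4 specimens) and KLC4 40.02 ± 3.67 against 32.04 ± 3.85 CPM. Both were higher in 4 of 4 specimens, with log2 fold changes of 0.41 (SE 0.06, adjusted p = 1.3e-05) and 0.44 (SE 0.09, adjusted p = 3.7e-04) by edgeR. KLC1 and KLC4 were the 2 of the 52 detected members whose specimens did not overlap between the classes, against 7.2% of features.

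Of the axonal and vesicle kinesins, 3 of 9 tested genes were higher. KIF3C, a neuronal kinesin-2 motor, was at 91.9, 88.9, 79.6 and 91.4 CPM against 82.9, 73.7, 66.4 and 77.2 CPM, higher in 4 of 4 specimens (log2 fold change 0.31, SE 0.07, adjusted p = 6.2e-04). KIF5A, the neuronal kinesin-1 heavy chain that carries neurofilaments, and KIF1B, a carrier of mitochondria and vesicle precursors, were called but did not move the same way in every specimen, and are named after their values were seen. KIF5A was at 97.3, 101, 53.3 and 38.1 CPM in NEFH-high spots and 61.9, 61.5, 39.2 and 39.05 CPM in other spots (log2 fold change 0.63, SE 0.09, adjusted p = 4.8e-05), and its male specimen of batch 2 showed no higher level. KIF1B differed by 0.57 (SE 0.13, adjusted p = 9.6e-04) on the log2 scale by edgeR. KIF5B, KIF5C and KIF1A were not called, with log2 fold changes of 0.11 (SE 0.07, adjusted p = 0.205), 0.10 (SE 0.12, adjusted p = 0.553) and 0.07 (SE 0.12, adjusted p = 0.662) in the same fit.

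Among dynein light chains, 3 of 8 were higher and 0 lower. DYNLL2 was at 1317, 1037, 897 and 962 CPM in NEFH-high spots and 1039, 828, 728 and 801 CPM in the others (log2 fold change 0.39, SE 0.06, adjusted p = 2.8e-05). Its paralog DYNLL1 was at 964, 1002, 844 and 952 CPM in NEFH-high and 1129.8, 1209.6, 785 and 959 CPM in other spots (log2 fold change -0.02, SE 0.06, adjusted p = 0.795), lower in 3 of 4 specimens and higher in the other. DYNLT3 averaged 270.3 ± 50.1 against 222 ± 37.3 CPM and was higher in 15 of 15 sections (log2 fold change 0.36, SE 0.06, adjusted p = 4.4e-05). DYNLT5, a scarce chain of the same Tctex family, was at 5.26 ± 1.87 against 2.85 ± 0.97 CPM (log2 fold change 0.97, SE 0.22, adjusted p = 0.00107). DYNLRB1, DYNLRB2, DYNLT1 and DYNLT2 were not called.

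Of 6 dynactin subunits, DCTN1 alone was called, with 533, 494, 536 and 571 CPM in NEFH-high spots and 459.7, 431, 445 and 547 CPM in other spots (log2 fold change 0.27, SE 0.06, adjusted p = 0.00151). DCTN2 had a log2 fold change of -0.05 (SE 0.06, adjusted p = 0.533) by edgeR. Of the mitotic kinesins KIF22, a chromosome-arm motor, was higher, 59.6 ± 17.3 against 44.9 ± 11.5 CPM (log2 fold change 0.50, SE 0.08, adjusted p = 2.6e-05). The summed dividing-cell markers, 6 of 7 list genes matched, were at 22.2 to 31.5 CPM in NEFH-high and 17.6 to 47.3 CPM in other spots, and 2 of their 5 tested genes were higher and 1 lower. KIF2A, a kinesin that takes microtubules apart, was higher by 0.24 on the log2 scale (adjusted p = 0.00919 by edgeR). Besides DYNC1I2, 2 members were called lower: KIF19, a kinesin of cilia, with a log2 fold change of -0.69 (adjusted p = 0.00616) and the dynein 2 chain DYNC2I2 with -0.38 (adjusted p = 0.0188), both in 3 of 4 specimens. These 3 genes were named after their values were seen, and each lost its call without the female or without the male specimen of batch 1 (adjusted p 0.0653 to 0.122).

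**Figure D3:**
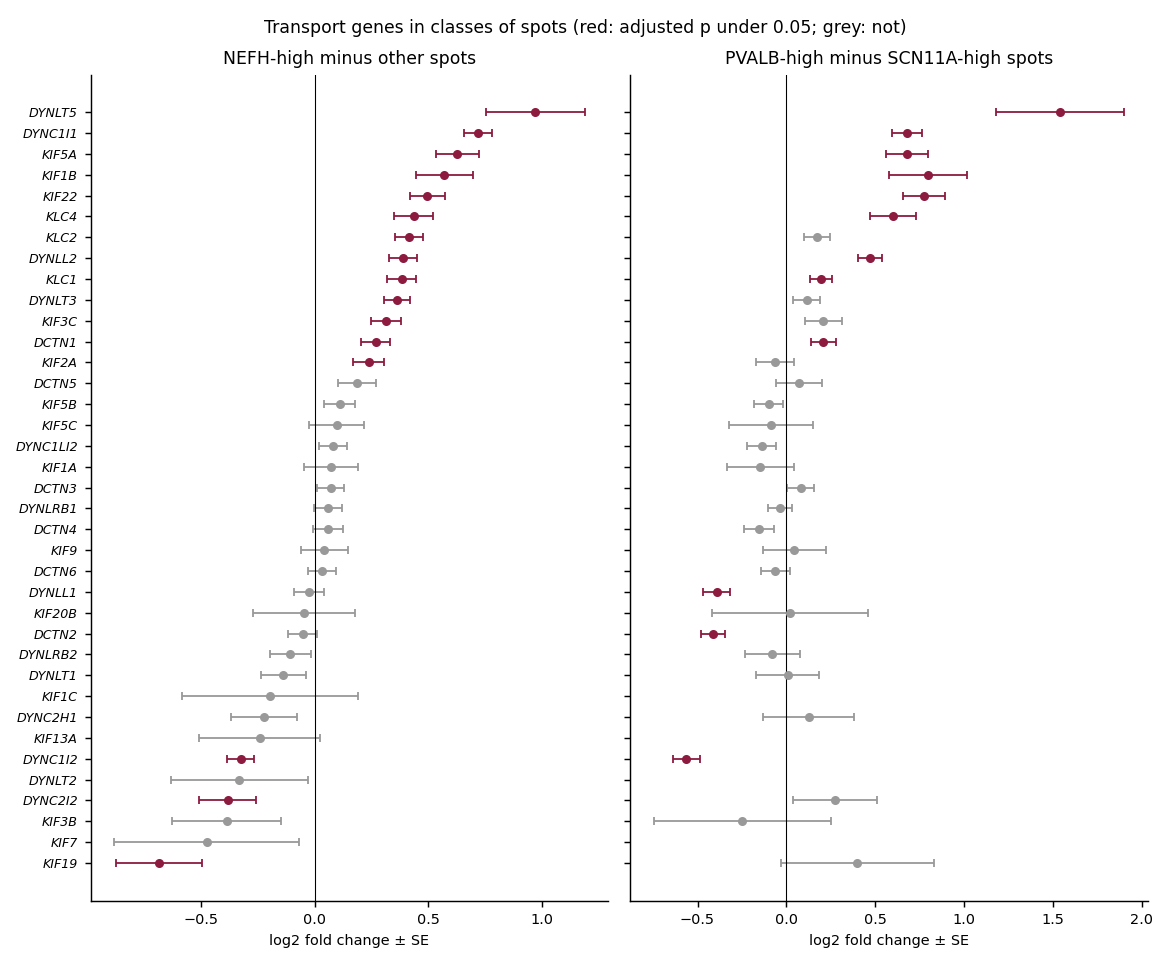
Log2 fold change ± SE of each tested member (rows, ordered by the left panel) in NEFH-high minus other spots (left, 37 members) and PVALB-high minus SCN11A-high spots (right, 33 members); red points have an adjusted p under 0.05 and grey points do not. DYNC1I1 lies above 0 and DYNC1I2 below 0 in both panels; the 2 comparisons share spots.

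Other cells and depth moved with these classes. The neuron markers summed to 23175 to 31676 CPM over specimens in NEFH-high spots and 18901 to 22019 CPM in other spots, with 5 of 11 tested genes higher and 3 lower. Markers of myelinating Schwann cells (8 of 9 matched) summed to 1481 to 3972 against 2377 to 7243 CPM and those of fibroblasts (8 of 8) to 1378 to 4499 against 1514 to 6557 CPM, with 7 of 7 tested genes lower in NEFH-high spots in each list and no list gene at 0 in total. Median UMIs per spot were higher in NEFH-high than in other spots in 14 of 15 sections. Their part in the members' differences was not tested beyond thinning. For this, only spots with at least 1000 UMIs were kept, reduced to 1000 UMIs each and classed anew. Spots as well as depth thus differ from the main comparison. While 18.8% of all features tested were then called, 9 members stayed called. Their log2 fold changes included 0.61 for DYNC1I1, 0.41 for DYNLL2, 0.33 for KLC1, 0.51 for KIF5A and -0.26 for DYNC1I2. KIF22, KLC4, KIF3C, DYNLT5, KIF1B, KIF2A and KIF19 were no longer called. Without specimen as a block, 0 members were called, with the share over all features not given for that run.

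Comparing spots rich in PVALB with spots rich in SCN11A asked whether motors differ between regions of large and of small sensory neurons. Spots were among the 10% of a section with the most of the gene and had at least 2 of its UMIs, which gave 1234 PVALB-high and 1184 SCN11A-high spots after those in both classes were left out. Of 33 members tested, 9 were higher in PVALB-high and 3 in SCN11A-high spots, where 34.2% of all 10228 features were called, 17.6% and 16.6% in these directions (edgeR's quasi-likelihood test with specimen as a block). Scaled by library size alone, 7 were higher in PVALB-high and 5 in SCN11A-high spots, with DCTN1 and KLC1 no longer called and DCTN4 and DYNC1LI2 added. The share over all features is not given for this run, so its counts are not read as results about the members. NEFH-high spots included 855 of the PVALB-high and 73 of the SCN11A-high spots, so both comparisons rest in part on the same spots and their values are given side by side.

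The dynein intermediate chains again went opposite ways. DYNC1I1 was at 283, 276, 247 and 248 CPM in PVALB-high spots and 222, 186, 137 and 135 CPM in SCN11A-high spots, with no overlap between the specimens of the classes and a higher level in 15 of 15 sections (log2 fold change 0.68, SE 0.09, adjusted p = 1.4e-08). DYNC1I2 was at 185, 214, 142 and 250.1 CPM and 292, 319.7, 232 and 359.6 CPM, lower in PVALB-high spots in 4 of 4 specimens and 13 of 15 sections (log2 fold change -0.56, SE 0.08, adjusted p = 9.7e-08).

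The LC8 light chains split the same way. DYNLL2 measured 1389, 1058, 913 and 1022 CPM in PVALB-high and 1035, 832, 723 and 699.9 CPM in SCN11A-high spots (log2 fold change 0.47, SE 0.07, adjusted p = 2.1e-07), higher in 15 of 15 sections. DYNLL1 measured 824, 821, 608 and 859.9 CPM and 1244, 1301, 800.1 and 907 CPM, lower in PVALB-high spots in 14 of 15 sections (log2 fold change -0.39, SE 0.08, adjusted p = 1.1e-04). DYNLT5 had 9.19 ± 4.10 against 3.37 ± 1.78 CPM (log2 fold change 1.54, SE 0.36, adjusted p = 7.2e-04), from few UMIs in each specimen.

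Dynactin subunits also differed in direction. DCTN2 was at 608, 599, 695 and 583 CPM in PVALB-high spots and 843, 826, 944 and 864 CPM in SCN11A-high spots, with no overlap between the specimens of the classes and the higher level in SCN11A-high spots in 15 of 15 sections (log2 fold change -0.41, SE 0.07, adjusted p = 2.5e-06). DCTN1 averaged 569.6 ± 40.8 and 522 ± 70.7 CPM, slightly higher in PVALB-high spots (log2 fold change 0.21, SE 0.07, adjusted p = 0.0196). DCTN1 lost its call without the male specimen of batch 1 (adjusted p = 0.104 by edgeR) or the female specimen of batch 2 (adjusted p = 0.208). DCTN3 to DCTN6 were not called.

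Among kinesins, KIF5A, called but not in the same direction in every specimen, was at 97.7, 115, 55.1 and 30.6 CPM in PVALB-high and 61.3, 64.2, 39.7 and 45.9 CPM in SCN11A-high spots (log2 fold change 0.68, SE 0.12, adjusted p = 1.0e-05), the reverse order standing in the male specimen of batch 2. KIF1B was at 15.97, 15.7, 15.2 and 12.6 CPM and 8.29, 10.5, 8.73 and 9.65 CPM without overlap (log2 fold change 0.80, SE 0.22, adjusted p = 0.00378), and DESeq2 did not call it (adjusted p = 0.0831). KIF22 averaged 67.1 ± 15.97 against 42.1 ± 6.37 CPM (log2 fold change 0.77, SE 0.12, adjusted p = 6.4e-07). KLC4 averaged 47.4 ± 5.30 against 31.8 ± 4.55 CPM and did not overlap between classes (log2 fold change 0.60, SE 0.13, adjusted p = 2.9e-04). KLC1 differed by 0.20 (SE 0.06, adjusted p = 0.0129) on the log2 scale by edgeR and lost its call without the male specimen of batch 1 (adjusted p = 0.132), and KLC2 was not called (log2 fold change 0.17, SE 0.07, adjusted p = 0.0687). KIF5B, KIF5C, KIF1A and KIF2A did not pass, with log2 fold changes from -0.15 to -0.07.

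The members DCTN2, DYNC1I1, KIF17, KIF1B and KLC4 had no overlap between the specimens of the 2 classes, 5 of 49 detected in them, against 9.95% of features. KIF17 was a low-level gene that the filter left out of the test. Neuron markers summed to 22699 to 31207 CPM over specimens in PVALB-high and 18885 to 23927 CPM in SCN11A-high spots. Of their 11 tested genes, 3 were higher and 5 lower in PVALB-high spots. Fibroblast markers summed to 1398 to 4266 CPM in PVALB-high and 1040.2 to 3237 CPM in SCN11A-high spots (5 of 7 tested genes higher in PVALB-high, 8 of 8 list genes detected). The part of either list in the members' differences was not tested. Median UMIs per spot were higher in the PVALB-high class in 6 of 15 sections. For thinning, only spots with at least 1000 UMIs were kept, reduced to 1000 UMIs each and classed anew. These classes, of fewer and partly other spots, held 734000 and 536000 UMIs in place of 8124075 and 8025840. Of 19 tested members 3 were called, KIF22, DYNC1I2 and DCTN2, while 18.3% of all features tested were called. Loss of depth and change of spots cannot be told apart here. DYNC1I1 then had a log2 fold change of 0.39 (adjusted p = 0.17), DYNLL2 of 0.20, DYNLL1 of -0.13 and KIF5A of 0.00682 in edgeR. Without specimen as a block DYNC1I1 was the 1 member called, with the share over all features not given for that run.

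Other genes of the pathway, adaptors, regulators and microtubule proteins from a list of 60 of which 52 were matched, were read from the same fits. In NEFH-high spots 22 of 51 were higher and 1 lower, against 20.2% and 20.5% of all features tested. The lower one was CAPZB, which caps the dynactin filament (-0.20 on the log2 scale). KIFAP3, which links kinesin-2 motors to cargo, was higher by 0.41 (SE 0.06, adjusted p = 2.4e-05), and the dynein regulator NDEL1 by 0.55 (SE 0.08, adjusted p = 5.3e-05). MAP7D2, which recruits kinesin-1 to microtubules, was higher by 1.17 (SE 0.07, adjusted p = 1.3e-11), the tubulin TUBA4A by 1.13 (SE 0.07, adjusted p = 2.8e-11) and the microtubule-binding MAP1A by 0.94 (SE 0.07, adjusted p = 2.3e-10). TUBB3, a neuronal tubulin, was higher by 0.29 (SE 0.07, adjusted p = 0.0023), while TUBA1B, at 0.04 (SE 0.07, adjusted p = 0.672), and MAPT, which encodes tau, at -0.01 (SE 0.09, adjusted p = 0.928), were not called by edgeR. The partner genes given with values were named after their values were seen. Between PVALB-high and SCN11A-high spots, 16 of 46 were higher in PVALB-high and 9 in SCN11A-high spots, against 17.6% and 16.6% of all features tested. The count higher in SCN11A-high spots lay near that share. NDEL1 (0.67), CLSTN1, a membrane cargo receptor of kinesin-1 (0.82), and MAP7D2 (1.35) were among the former. Among those higher in SCN11A-high spots were SYBU, a kinesin-1 adaptor for syntaxin vesicles (-0.37), the dynactin genes ACTR1B (-0.21) and CAPZB (-0.48), TUBB3 (-0.17), TUBA1B (-0.33) and MAPT (-0.39). None of these lists was tested as a set. Between batches 0 of 52 partners were called by edgeR (2 at an unadjusted p under 0.05), and between sexes 0 of 52 (1 at an unadjusted p under 0.05). Of all features tested, 2.89% were called between batches and 0% between sexes.

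Over single spots, the members' levels correlated weakly with all 3 selector genes, and these correlations are given as descriptions since spots of a section share library, depth and neighbours. Spearman's correlation between DYNC1I1 and NEFH per 10000 UMIs had a median of 0.29 over 15 sections (509 to 1806 spots each), with PVALB 0.28 and with SCN11A 0.22. For DYNC1I2 the medians were 0.10, 0.16 and 0.26, and for DCTN2 0.16, 0.19 and 0.28. KLC1 had 0.29, 0.25 and 0.26. With spots thinned to 1000 UMIs (270 to 1222 spots), the medians with NEFH, PVALB and SCN11A were 0.106, 0.0258 and -0.0173 for DYNC1I1, -0.0443, -0.0332 and 0.0335 for DYNC1I2, -0.00505, -0.0123 and 0.0584 for DCTN2 and 0.108, 0.0369 and 0.0441 for KLC1. DYNC1I1 thus went to a median below 0 with SCN11A, and DYNC1I2 and DCTN2 with NEFH and PVALB. After thinning, the correlation with NEFH was above 0 in 15 of 15 sections for DYNC1I1 and KLC1, in 7 of 15 for DCTN2 and in 1 of 15 for DYNC1I2. With SCN11A the correlation was then above 0 in 5 of 15 sections for DYNC1I1, 10 for DYNC1I2, 14 for DCTN2 and 12 for KLC1. At 1 fixed depth the correlations were weak and were read no further.

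Spatial patterning was read from Moran's I, the authors' deposited score of how alike neighbouring spots are, with the adjusted p they gave per section. Of the 52 listed members 12 had, in those tables, an adjusted p under 0.05 in at least 8 of 16 sections, where 8.69% of 17322 features did. By role these were 2 of 4 kinesin light chains, 2 of 3 dynein 1 subunits, 4 of 8 dynein light chains and 4 of 6 dynactin subunits, and 0 of 12 axonal and vesicle kinesins. All of them but DCTN4 were also among the 12 members with the highest mean CPM. Many other members and features lay near 0 CPM, and the part of level in the score was not tested. The median over members of their median Moran's I was -0.000144, against -0.000594 over all listed features.

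KLC1 had the highest score among members in the authors' deposited tables, with a median Moran's I of 0.188 (0.0487 to 0.603 from the lowest to the highest section) and a pass in 16 of 16 sections. DCTN2 followed with 0.104 (0.0376 to 0.515), also in 16 of 16, then DYNLL2 with 0.0987 (0.021 to 0.477) in 15 and DCTN1 with 0.0817 (0.0279 to 0.437) in 15 sections. KLC2, DYNLT3, DYNLRB1, DYNC1I1, DYNLL1 and DCTN3 had medians between 0.0399 and 0.0696. Medians in the same deposited tables were 0.283 for NEFH, 0.112 for SCN11A and 0.0897 for PVALB, so KLC1 lay between NEFH and SCN11A. KIF5B and KIF5A passed in 6 sections each, with medians of 0.0179 and 0.0158. The ranges of neighbours in this order overlapped widely.

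In 1 section, section 2 of the female specimen of batch 1, each of the 10 members named above had its highest score in the authors' deposited tables, from 0.247 for DCTN3 to 0.603 for KLC1. The same section had the highest median UMIs per tissue spot, 5145, where the other 14 lay between 398 and 2481. The part of depth in the score was not tested.

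**Figure D4:**
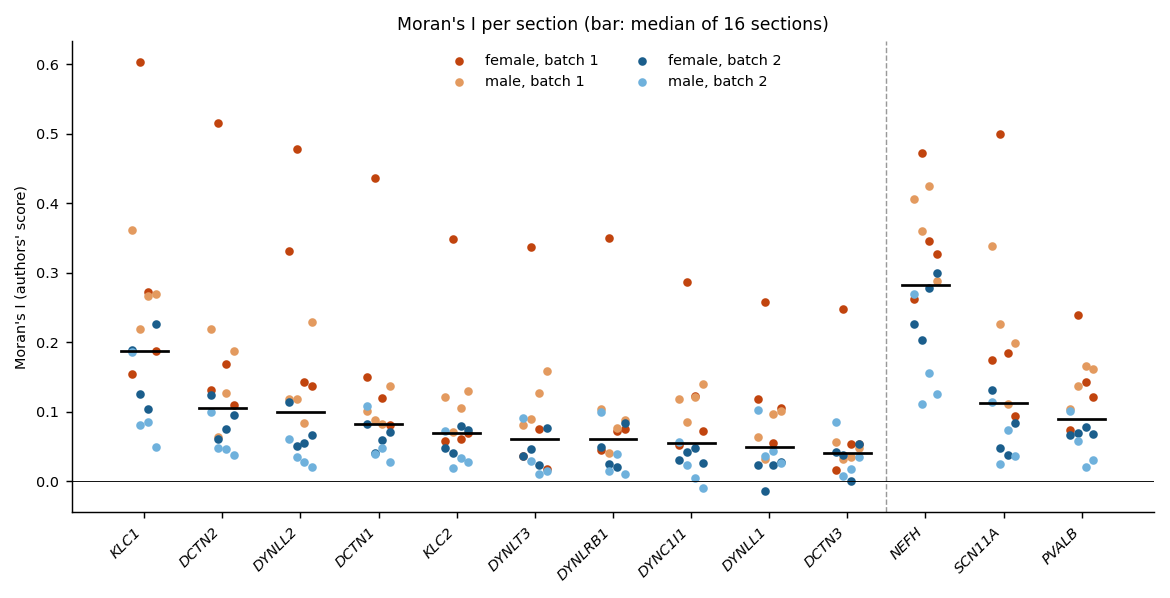
Moran's I as deposited by the authors (y axis, no unit) for the 10 members with the highest median and, right of the dashed line, for NEFH, SCN11A and PVALB; 1 point per *M. fascicularis* section, coloured by sex and batch, with the median of 16 sections as a bar. KLC1 has the highest median of the members. The top point of each of the 10 members, and of NEFH, SCN11A and PVALB, is section 2 of the female specimen of batch 1.

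Levels by labelled species were set side by side over the 13102 symbols shared by all 3 sets of files, which included 51 of the 55 members. Files under the label *M. mulatta* use Ensembl identifiers of *P. anubis*, and files under the label *P. anubis* use identifiers of *M. mulatta*, so labels and files may be crossed. Each labelled species was counted on its own feature set. Sections of the other labels, all of batch 2, were set against *M. fascicularis* sections of both batches. With 1 title code for each of these species there is no test. A member was called apart where means differed at least 4-fold and the sections did not overlap. Against *M. fascicularis*, 14 of 51 members were apart in the sections labelled *M. mulatta*, 5 higher and 9 lower, where 21.9% of 12082 symbols were apart, 8.05% higher and 13.9% lower. In those labelled *P. anubis* 8 were apart, 6 higher and 2 lower, where 17.1% of symbols were apart, 8.24% higher and 8.83% lower.

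In the sections labelled *M. mulatta*, the kinesin light chains KLC1 and KLC2 were among the members that were lower and apart. KLC1 was at 72.04 and 36.9 CPM there, from 7 and 5 UMIs, against 1760.1 to 2672 CPM in *M. fascicularis* and 1778 and 2225 CPM in the sections labelled *P. anubis*. KLC2 was at 20.6 and 7.39 CPM, from 2 UMIs and 1 UMI, against 363 to 684 and 549.9 and 336 CPM. Both light chains were thus apart from the other 18 sections in this labelled species. KLC4, at 20.6 and 7.39 CPM against 29.9 to 68.2 CPM in *M. fascicularis*, differed 3.92-fold and was not apart by the rule. KLC3, which averaged 0.168 CPM in *M. fascicularis*, had 0 UMIs in the sections labelled *M. mulatta* and was not apart either. DYNLL2 measured 30.9 and 73.9 CPM, from 3 and 10 UMIs, where its paralog DYNLL1 measured 2604 and 2749 CPM. *M. fascicularis* held 1176 to 2128 CPM of DYNLL2 and 1057 to 1970.2 CPM of DYNLL1. DYNLT3, at 10.3 and 22.2 CPM against 190.5 to 479 CPM, and DCTN4, the p62 subunit at the pointed end of dynactin, at 10.3 and 22.2 CPM against 201 to 337 CPM, were lower as well, each from 1 and 3 UMIs. DYNLT1, of the same light chain family as DYNLT3, was higher, 370.5 and 362 CPM against 18.6 to 58.5 CPM. KIF13B and KIF3B, kinesins of vesicle transport, were higher. KIF13B was at 30.9 and 73.9 CPM against 0 to 2.80 CPM and KIF3B at 30.9 and 51.7 CPM against 2.60 to 18.7 CPM, from 3 to 10 UMIs a section. The higher calls of KIF7 and KIF27, regulators in cilia, came from 1 UMI a section each.

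In the sections labelled *P. anubis* several kinesins were higher. KIF1A was at 1228 and 578 CPM against 15.9 to 44.9 CPM in *M. fascicularis* and 20.6 and 14.8 CPM in the sections labelled *M. mulatta*. KIF3C was at 577 and 716 CPM against 92.5 to 147 CPM, and had 0 UMIs in both sections labelled *M. mulatta*, which allows up to 12.9 CPM (3 counts over both). KIF1C was at 54.99 and 36.6 CPM against 0 to 6.65 CPM. KIF21B and KIF13B were higher too, with 9.16 and 20.8 CPM and 15.3 and 5.73 CPM. DYNLRB1 was lower at 305 and 26.6 CPM against 526 to 1117 CPM, and its 2 sections were far from each other. DYNLT1 was also lower, 15.3 and 1.17 CPM. KLC1, DYNC1I1, DYNC1I2 and KIF5A were not apart by this rule in the sections labelled *P. anubis*.

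Summed by role, kinesin light chains were at 2253 to 3382 CPM in *M. fascicularis*, 113 and 51.7 CPM in the sections labelled *M. mulatta* and 2389 and 2615 CPM in those labelled *P. anubis*. Axonal and vesicle kinesins were at 436 to 794 CPM in *M. fascicularis*, 473 and 658 CPM in the sections labelled *M. mulatta* and 2542 and 2104 CPM in those labelled *P. anubis*. Dynein light chains summed to 3882 to 4925 CPM in *M. fascicularis*, 4744 and 4404 CPM in the sections labelled *M. mulatta* and 3531 and 3727 CPM in those labelled *P. anubis*; the sections labelled *M. mulatta* thus lay within the *M. fascicularis* range and those labelled *P. anubis* below it. Cell markers moved with these labels: the neuron list (10 shared symbols) summed to 26819 to 45316 CPM in *M. fascicularis*, 14377 and 6296 CPM in the sections labelled *M. mulatta* and 32592 and 48827 CPM in those labelled *P. anubis*, and the fibroblast list (8 shared symbols) to 1865 to 10931 CPM in *M. fascicularis*, 23506 and 43445 CPM in the sections labelled *M. mulatta* and 18414 and 10311 CPM in those labelled *P. anubis*. Their part, that of the feature sets and that of depth were not tested. DYNC1H1 and 11 other members of the rule in the files of the sections labelled *M. mulatta*, and 12 others in those labelled *P. anubis*, had no symbol in the *M. fascicularis* files and were not compared.

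**Figure D5:**
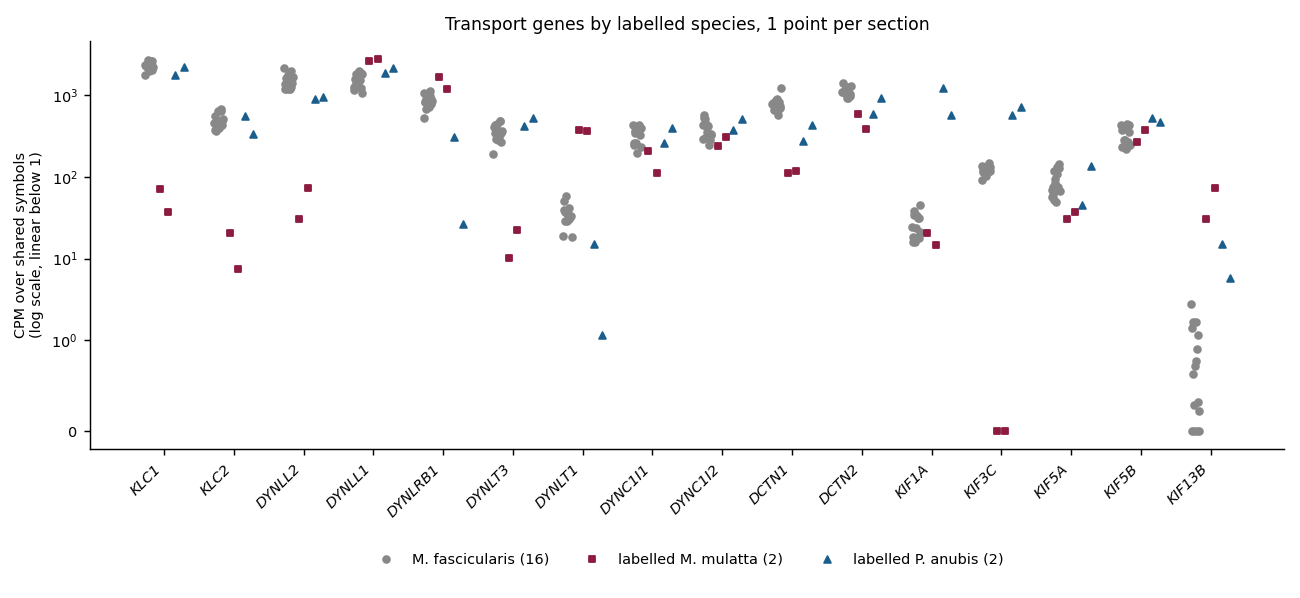
Level of 16 members in each section by labelled species, in CPM over the 13102 shared symbols on a log axis that is linear below 1; grey circles are 16 *M. fascicularis* sections, red squares 2 sections labelled *M. mulatta* and blue triangles 2 labelled *P. anubis*. KLC1, KLC2, DYNLL2 and DYNLT3 lie lower in the sections labelled *M. mulatta*, KIF1A and KIF3C higher in those labelled *P. anubis*, and KIF3C is at 0 in both sections labelled *M. mulatta*.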

How the data were processed

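Fresh frozen dorsal root ganglion sections were run on Visium (polyadenylated RNA), per the labels' protocols. The deposited counts are UMIs per feature and spot, from Space Ranger 2.0.0 (batch 1 and both other species) or 2.1.0 (batch 2 of *M. fascicularis*), per the file headers; the submitters' processing notes name the build Mmul_10 for every sample, while identifiers carry 3 Ensembl prefixes. The authors also deposited a Moran's I score with its p-value and adjusted p-value per feature and section, which are only described. The aligner settings are not given in the sources used here.

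The members and lists were chosen with earlier results of these data known. Counts were summed per specimen, or per specimen and spot class, and tested in edgeR 4.0.16 (R 4.3.3; filterByExpr, TMM, robust quasi-likelihood fit) with Benjamini-Hochberg adjustment over all features tested; SE is the log2 fold change over the root of F. Batch and sex shared 1 additive fit. Spots under tissue with at least 200 UMIs entered. DESeq2 1.42.0, library size alone, no filter, no block, sections as units, other spot shares, thinning and left-out sections or specimens were alternatives. Genes described singly are the 12 members with the highest mean, the called members moving the same way in every specimen (up to 10 each way), the 10 with the highest median Moran's I and up to 5 each way by species. Section counts of a pair within a group differed beyond sampling noise (lowest chi-square per degree of freedom 3.93). UMI limits cover counting error only. Sequences were not used here.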

Additional observations from a re-analysis of the deposited data

Results flagged for a closer look

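Sections far from the other 3 of their specimen were found in 9 of 100 groups examined, where about 1 in 20 is reached by chance. Section 4 of the male specimen of batch 2 was high for DYNLL2, 1109 CPM against 764 to 812 CPM, and for KLC2, 341 CPM against 245 to 257 CPM. DCTN1 was low in section 4 of the batch 2 female, 454 CPM against 486 to 490.3 CPM. DYNLT3 was low in section 2 of the male specimen of batch 1, 190.0 CPM against 223.9 to 224.4 CPM, and the same section was high for KIF3C, 88.2 CPM against 75.1 to 77.2 CPM. By summed role, axonal and vesicle kinesins were low in section 2 of the batch 1 female (466 CPM against 513 to 517 CPM), and section 4 of the male specimen of batch 1 was high for kinesin light chains (2006 CPM against 1784 to 1805 CPM) and low for other kinesins (113 CPM against 123 to 125 CPM). Section 3 of the male specimen of batch 2 was high for mitotic kinesins (49.4 CPM against 33.5 to 36.1 CPM).

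DCTN3 had opposite signs in a pair of specimens, with the sections of each specimen sharing a sign; the difference was not tested. In NEFH-high minus other spots its log2 ratio was 0.0231 in the male specimen of batch 1 and -0.0562 in the female specimen of batch 2. In PVALB-high minus SCN11A-high spots it was 0.139 in the female specimen of batch 1 and -0.146 in the female specimen of batch 2. Spots outside tissue, used in no comparison, held 35424 member UMIs over 15 sections, 7095 CPM of their own total against 7739.5 CPM under tissue.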

How the results depend on the processing

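The number of members called between batches was 0 by edgeR over specimens and 4 with no filter on low counts (DCTN5, DYNLRB2, KIF5A and KIF5C). It was 18 with sections as samples and 19 with the section number added as a replicate block, but sections of a specimen are not independent. Shares over all features are not given in this paragraph, so its counts describe the runs and are not read as results about the members. Section numbers were not taken to pair the samples, since 10 of 24 same-number pairs correlated above 0.1. Within batch 1, however, 4 of 4 same-number female and male pairs did (0.2 to 0.484). Sections 1 and 2 of both specimens correlated positively with each other there, as did sections 3 and 4, while pairs of a section 1 or 2 with a section 3 or 4 lay between -0.61 and -0.144. Within batch 2 the same-number pairs lay between -0.0789 and 0.0212. Leaving out 1 section gave 0 to 3 members. Between sexes the count was 0 in each alternative run, sections as samples with and without the replicate block included. In NEFH-high spots the count of 16 went to 0 without the specimen block and 9 after thinning, and stayed within 13 to 17 in the other alternatives (13 to 16 with 1 specimen left out). Between PVALB-high and SCN11A-high spots the count of 12 went to 1 without the specimen block and 3 after thinning. It was otherwise 10 to 13 (10 to 12 with 1 specimen left out). Thinning left fewer UMIs, fewer spots, which were classed anew, and fewer features tested. With a Moran's I of at least 0.1 required as well, 3 members in place of 12 had a pattern in at least 8 sections; on the adjusted p alone, 2 members had one in all 16 sections. Counts of members apart between labelled species ranged from 14 to 19 (labelled *M. mulatta*) and 8 to 9 (labelled *P. anubis*). No named gene that was called changed direction in any alternative run. With 190376 and 264661 UMIs, the sections labelled *M. mulatta* were the shallowest.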
